A study of Mus musculus with 4 samples.

Results

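Activin-family ligands and the follistatin-type proteins that bind them were followed through Hepa1-6 cells, a mouse hepatocellular carcinoma line, in libraries labelled as wild type or knockout for the activin receptor gene Acvr2a. The family was taken by gene symbol as 10 genes of the 54838 listed in each library: the inhibin and activin subunits Inha, Inhba, Inhbb, Inhbc and Inhbe, the ligands Gdf11 and Gdf15, and the follistatin-type genes Fst, Fstl1 and Fstl3. Bulk RNA was sequenced from 2 libraries labelled NC, whose genotype is given as Acvr2a wild type, and 2 labelled KO, whose genotype is given as Acvr2a knockout. The labels name no treatment, time or method of knockout. The series text calls the cells subclones without saying how many clones the KO libraries stand for, and nothing states that replicates came from separate cultures. The p-values therefore set the difference between KO and NC against the spread between libraries, estimated partly from other genes. That spread may be technical and may include differences between clones. A difference of clone or culture between the groups cannot be told apart from one of genotype. Library totals lay between 11597923 and 13910582 counts.

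Activins are dimers of inhibin beta subunits. They bind type II receptors such as the product of Acvr2a, which recruit type I receptors that phosphorylate SMAD2 and SMAD3. Inhibin, which pairs the alpha subunit with a beta subunit, opposes them, and follistatin and follistatin-like 3 are secreted proteins that wrap around activin and keep it from its receptors. In the liver the beta C and beta E subunits are typical hepatocyte products, follistatin is a circulating hepatokine, and GDF15 is a stress-induced hormone with a receptor of its own, GFRAL.

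Of the 10 genes, 8 had at least 1 count and 5 passed the filter on low counts: Fstl3, Fst, Gdf15, Gdf11 and Inhba. The filter asked for 0.757 CPM (counts per 1e6 counts) in at least 2 libraries, and Inhba passed it through the NC libraries only. Fstl3, Gdf15 and Gdf11 were higher in KO and Fst was lower at an adjusted p under 0.05 (edgeR quasi-likelihood test, adjusted over the 12510 genes tested). That is 4 of 5 tested genes, 3 higher and 1 lower. Among all genes tested 37.9% passed the same threshold, 19.7% higher and 18.2% lower. The NC and KO libraries did not overlap in CPM for any of those 4, which was the case for 69.4% of all genes tested. For Inhba the filter itself fixed that separation. The expected counts of all 10 genes were whole numbers in every library, to within 0.005, as they are where no read is divided with another gene. In bulk RNA a change in the number of cells that express a gene and a change in RNA per cell cannot be told apart.

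**Figure D1:**
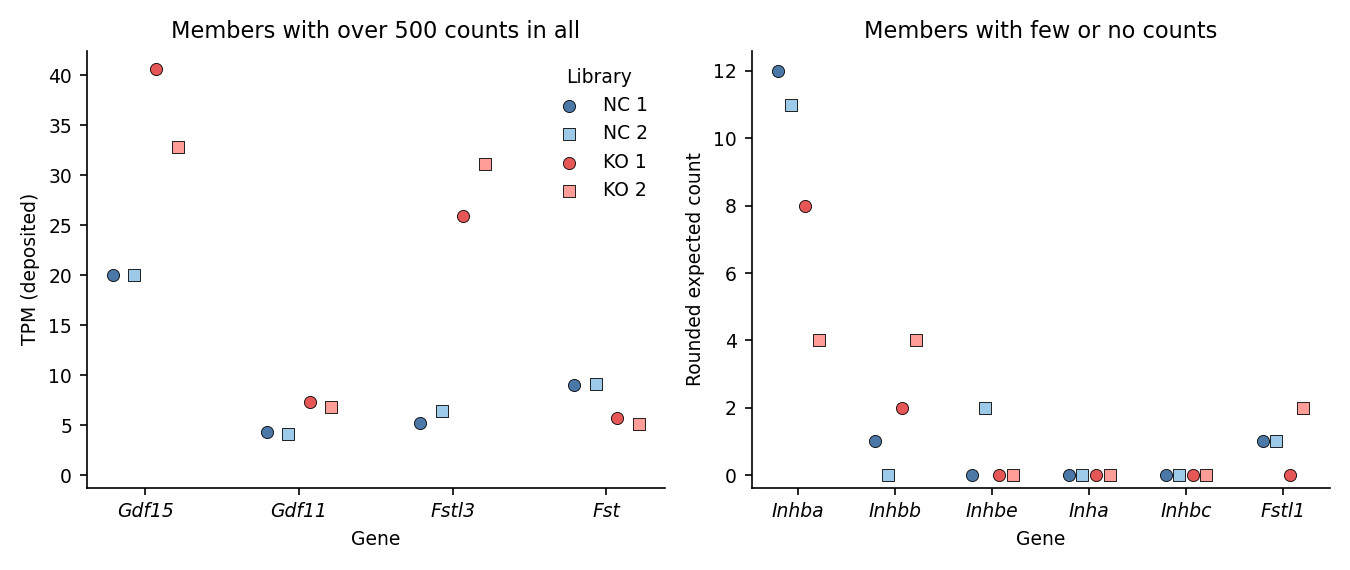
Level of each of the 10 genes in each library, as deposited TPM for the 4 genes with the most counts (left) and as rounded expected counts for the other 6 (right). Circles and squares are replicates 1 and 2, blue for NC and red for KO. Fstl3 goes from 5.22 and 6.44 TPM in NC to 25.9 and 31.1 in KO, while no gene in the right panel exceeds 12 counts in any library.

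The sequences upstream of the 3 genes that were higher in KO are shown because each was called in that direction. Whether their changes have anything in common was not tested. Each is the 250 bases before the RefSeq transcription start on GRCm38.p6, 5′ to 3′ on the gene's strand, at chr10:79777024-79777273 (plus strand) for Fstl3, chr8:70632457-70632706 (minus strand) for the outer of the 2 RefSeq starts of Gdf15 and chr10:128891719-128891968 (minus strand) for Gdf11. Capitals mark a match to any word searched on both strands.
Fstl3: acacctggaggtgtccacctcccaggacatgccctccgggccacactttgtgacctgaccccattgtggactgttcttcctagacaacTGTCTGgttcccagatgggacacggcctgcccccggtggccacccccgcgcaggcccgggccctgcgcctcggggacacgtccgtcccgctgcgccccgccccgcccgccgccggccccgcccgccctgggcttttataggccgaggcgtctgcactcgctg
Gdf15: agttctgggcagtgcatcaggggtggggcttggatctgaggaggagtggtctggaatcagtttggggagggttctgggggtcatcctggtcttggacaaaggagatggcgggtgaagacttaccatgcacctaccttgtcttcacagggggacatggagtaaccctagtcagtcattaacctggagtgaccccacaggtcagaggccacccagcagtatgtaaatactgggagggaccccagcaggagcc
Gdf11: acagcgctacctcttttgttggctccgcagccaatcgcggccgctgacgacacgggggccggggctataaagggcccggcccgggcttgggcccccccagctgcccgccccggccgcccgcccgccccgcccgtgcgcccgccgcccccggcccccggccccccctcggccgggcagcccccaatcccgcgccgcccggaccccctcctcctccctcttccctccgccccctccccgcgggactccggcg

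The words were GTCTAGAC, the SMAD palindrome, CAGACA, a part of the CAGA box bound by SMAD3 and SMAD4, TGATGNAA, the composite element of CHOP and ATF factors, TGACGTCA, the cyclic AMP response element, TGANTCA, the AP-1 site, and CACGTG, an E-box. None overlaps another in these windows. The Fstl3 window held 1 match, the CAGA word on the reverse strand, at positions -162 to -157 from the start, and 17.1% of 32851 RefSeq windows of this length hold that word. Within the family the Inhbc window also held it, at positions -113 to -108, and Inhbc had 0 counts in every library. The Gdf11 window and the printed Gdf15 window held 0 matches. The window of the other Gdf15 start, at chr8:70632096-70632345 inside the annotated gene, held the E-box word at positions -83 to -78, and 6.02% of all windows hold that word. The Fstl3 and Gdf11 windows were rich in G and C, at 71.2% and 81.2% with 22 and 33 CpG dinucleotides, against a median of 52.4% and 6 over all windows. The windows of Inhbb and Fstl1, which did not pass the filter on counts, were also rich, both at 68% with 21 and 16 CpG. The Gdf15 windows stood nearer the median, both at 56.4%, with 1 CpG in the printed one and 6 in the other. RefSeq windows were found for 9 of the 10 genes, all but Fst. A match describes letters only, and binding was not measured.

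Acvr2a itself was read at 81 and 108 counts in the NC libraries against 75 and 97 in KO. The log2 fold change was -0.21 (95% interval -0.63 to 0.21, edgeR adjusted p = 0.433), so its RNA level did not separate the groups, and NC and KO are used here as the labels give them. Acvr2a shares 446 exonic bases with Orc4 on the other strand, which had 587 and 692 counts in NC against 391 and 457 in KO. Whether counting used strand is not given in the sources used here, and reads from the shared bases cannot be told apart without it. The gene-level totals do not show the edited site.

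Among the 5 members that could be tested, Fstl3 moved furthest. It lies on chromosome 10 at 79777272 to 79782630 (GRCm38, plus strand) and encodes a secreted glycoprotein that binds activins and myostatin-type ligands. It was read 87 and 132 times in NC against 476 and 570 times in KO. Both KO libraries were therefore several times above both NC libraries. The fitted ratio of KO to NC was 4.53 (95% interval 3.66 to 5.59), a log2 fold change of 2.18 (SE 0.15, edgeR adjusted p = 5.78e-12). By p-value this was place 16 among the 12510 genes tested, and by size of rise place 133. In the NC libraries Fstl3 stood at percentiles 30.8 and 33.7 of the TPM of tested genes, below the median gene, and in KO at 66.5 and 71.9, above it. Its exons share 1157 bases with Prss57 on the other strand, and Prss57 had 1 count in all 4 libraries together.

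Fst moved the other way. The gene, on chromosome 13 at 114452290 to 114458951 (minus strand), encodes follistatin, the founding activin-binding protein and itself a gene induced by activin signalling. Its counts were 178 and 195 in NC and 105 in each KO library. The KO libraries lay below both NC libraries, with a ratio of 0.531 (95% interval 0.420 to 0.671) and a log2 fold change of -0.91 (SE 0.16, edgeR adjusted p = 8.00e-05). Per transcript length the level fell from 9.02 and 9.07 TPM in NC to 5.72 and 5.07 TPM in KO. The annotation holds 6 Fst transcripts of 673 to 2921 bases, and the mean length the authors' files assign to the gene was 2085 and 1977 bases in NC against 1856 and 1942 in KO. The NC values are longer than the KO values, but they rest on 105 to 195 reads each and were not tested. An antisense gene, Gm47040, shares 115 exonic bases with Fst and had 1 count in all.

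The remaining follistatin-type gene, Fstl1, was close to absent. Its product carries a follistatin domain but is a distant relative, secreted mainly by mesenchymal cells. It had 1 count in each NC library, 0 in KO 1 and 2 in KO 2. The group totals of 2 and 2 lie under the limit of 3 counts that a count of 0 allows, so no ratio is given.

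The opposite changes of Fst and Fstl3 exchanged their order. Per length, Fst was above Fstl3 in both NC libraries, and Fstl3 was above Fst in both KO libraries. The ratio of Fstl3 to Fst TPM was 0.579 and 0.710 in NC against 4.53 and 6.13 in KO. Fstl3 thus made up 36.7% and 41.5% of their summed TPM in NC and 81.9% and 86.0% in KO. The sum was 14.2 and 15.5 TPM in NC and 31.6 and 36.2 TPM in KO, or 14.9 ± 0.898 against 33.9 ± 3.20 TPM (SD, n = 2), a log2 ratio of the means of 1.19. Both KO libraries exceeded both NC libraries in the sum and in the ratio. With 2 libraries a group the exact two-sided permutation test cannot go below p = 0.333, and each of these quantities gave that value.

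**Figure D2:**
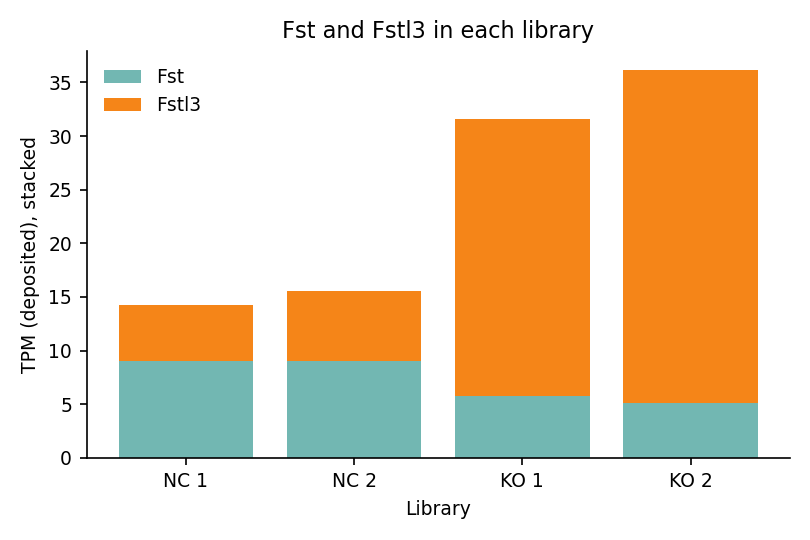
Deposited TPM of Fst (lower part) and Fstl3 (upper part) stacked for each of the 4 libraries. The summed level is 14.2 and 15.5 TPM in NC and 31.6 and 36.2 TPM in KO, and Fstl3 is the smaller part in NC and the larger part in KO.

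Among the ligands, Gdf15 was the most abundant RNA in every library. It lies on chromosome 8 at 70629393 to 70632456 (minus strand) and shares no exonic base with another annotated gene. Its counts were 245 and 282 in NC against 526 and 455 in KO. The KO libraries stood above both NC libraries and differed from each other more than the NC pair did, at 40.6 and 32.8 TPM against 20.0 TPM in both NC libraries. The ratio was 1.76 (95% interval 1.48 to 2.09), a log2 fold change of 0.81 (SE 0.12, edgeR adjusted p = 8.78e-06). GFRAL, the receptor that GDF15 is known to use in the hindbrain, had 0 counts for its gene Gfral in all 4 libraries.

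Gdf11, a ligand closely related to myostatin that signals through the activin type II receptors, rose by less. The gene is on chromosome 10 at 128882295 to 128891718 (minus strand), with 1 annotated transcript of 4062 bases. It was counted 176 and 195 times in NC against 319 and 315 times in KO, so the groups were well apart and replicates close together. The ratio was 1.61 (95% interval 1.33 to 1.95), a log2 fold change of 0.69 (SE 0.14, edgeR adjusted p = 0.000233). Per length its level was far under that of Gdf15, at 4.31 and 4.12 TPM in NC and 7.34 and 6.77 TPM in KO. The ratio of Gdf15 to Gdf11 TPM was 4.64 and 4.86 in NC against 5.54 and 4.84 in KO, and these ranges overlap.

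**Figure D3:**
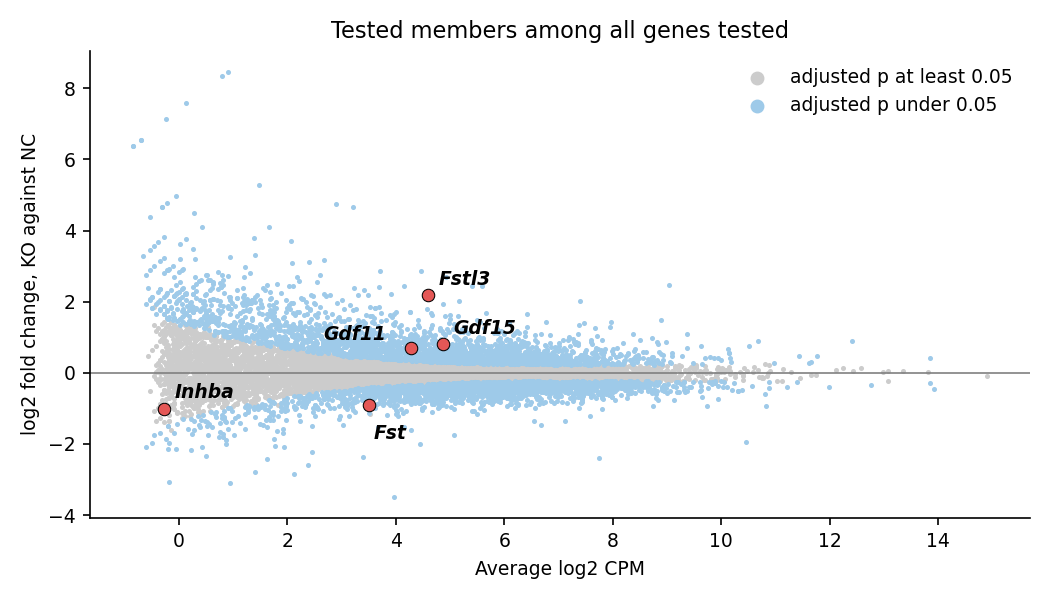
Log2 fold change of KO against NC (y axis) by average log2 CPM (x axis) for the 12510 genes tested, blue where the adjusted p was under 0.05 and grey otherwise. Red points are the 5 tested members of the family, of which Fstl3 (2.18), Gdf15 (0.81) and Gdf11 (0.69) are above 0 and Fst (-0.91) and Inhba (-1.01) below it.

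The activin subunits proper were scarcely read. Inhba, which encodes the beta A subunit of activin A, lies on chromosome 13 at 16011851 to 16031621 (plus strand) and had 12 and 11 counts in NC against 8 and 4 in KO. The NC libraries were higher in counts, but the log2 fold change of -1.01 had a 95% interval of -2.24 to 0.22 and did not pass (edgeR adjusted p = 0.176). In TPM the groups overlapped, at 0.18 and 0.17 in NC against 0.26 and 0.05 in KO, because the length assigned to the gene in KO 1 was 2911 bases against 6390 in KO 2. A direction for Inhba was therefore not resolved at this depth.

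Inhbb, the beta B subunit gene, had 1 and 0 counts in NC against 2 and 4 in KO. The ratio of KO to NC totals was 5.79 with an exact 95% counting interval of 0.703 to 266, which includes no change. Inhbe, the beta E subunit gene, had 2 counts in NC 2 and 0 in the other libraries. Inhbc, the beta C subunit gene, and Inha, the inhibin alpha subunit gene, had 0 counts in every library. A count of 0 allows up to 0.118 CPM over the NC libraries and up to 0.114 CPM over the KO libraries, counting error only. The hepatocyte-type subunits beta C and beta E were thus at or near the limit of detection in both groups of this hepatoma line.

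Together the 7 ligand and subunit genes gave 24.5 and 24.3 TPM in NC and 48.3 and 39.7 TPM in KO. Gdf15 and Gdf11 made up between 99.2% and 99.7% of that sum in each library. The 4 activin beta subunit genes summed to 0.20 TPM in both NC libraries and to 0.30 and 0.13 TPM in KO. In NC the order of the levels per length was Gdf15, Fst, Fstl3, Gdf11 and Inhba, with no overlap between neighbours. In KO the order was Gdf15, Fstl3, Gdf11, Fst and Inhba. There the libraries of Gdf15 and Fstl3 lay between 32.8 and 40.6 and between 25.9 and 31.1 TPM, a gap smaller than the SD of Gdf15 (5.55 TPM), so these neighbours did not differ beyond their spread.

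**Figure D4:**
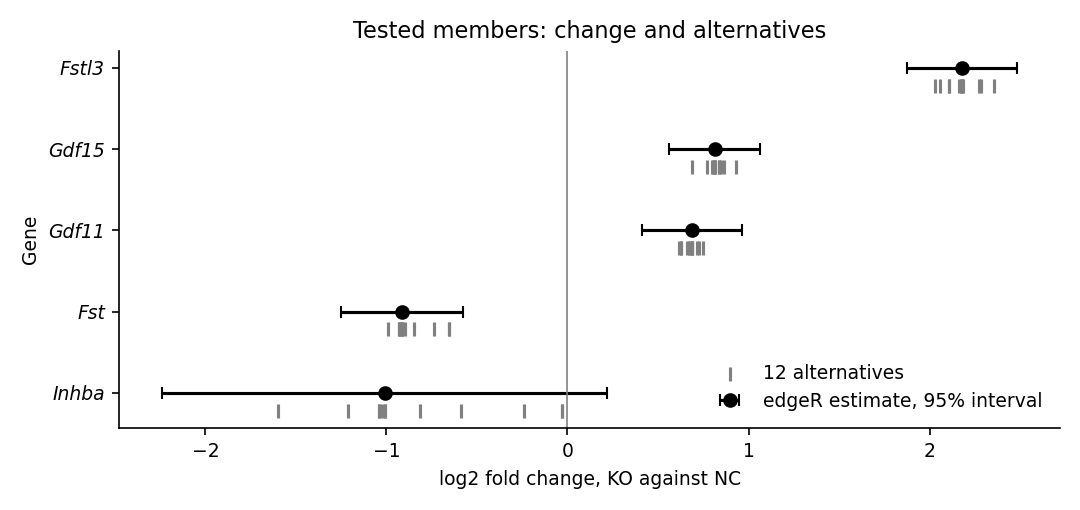
Log2 fold change of KO against NC for the 5 tested members, with the edgeR estimate and its 95% interval (black) and the values under the 12 alternative analyses (grey ticks). The intervals of Fstl3, Gdf15, Gdf11 and Fst exclude 0, and that of Inhba, from -2.24 to 0.22, includes it.

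Other genes of the pathway were read from a list of 35 receptors, further ligands, antagonists, processing proteases and SMADs. Of these, 18 were tested and 8 passed, 5 higher and 3 lower in KO, against 37.9% of all genes tested. Their median log2 fold change was 0.090, where the median of all genes was -0.0037. Of the receptors and co-receptors 7 were tested. Acvr1b, the type I receptor of activin, passed as higher with 208 and 318 counts in NC against 338 and 400 in KO (log2 fold change 0.42, edgeR adjusted p = 0.0160), and the call was lost with DESeq2 (adjusted p = 0.129), in the filtered TPM fits (0.139 and 0.141), without NC 1 (log2 fold change 0.26, adjusted p = 0.209) and without KO 2 (log2 fold change 0.31, adjusted p = 0.127). Acvr1 was lower at -0.40, a call lost with DESeq2, in the filtered TPM fits, without NC 2 and without KO 1, and 5 did not pass. Without KO 2 the list of 35 had 5 calls, and DESeq2 gave 2, Furin and Smad7. None of the further activin-class ligands Mstn, Nodal, Gdf1 and Gdf3 passed the filter, and none had more than 3 counts in a library.

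Among the other antagonists and binding proteins, 3 of 9 were tested and all 3 passed as higher in KO by counts, at low levels. Of all genes tested 19.7% passed as higher. Wfikkn1, a secreted binding protein of GDF11 and myostatin, had 8 and 6 counts in NC against 30 and 26 in KO (log2 fold change 1.89, SE 0.50, edgeR adjusted p = 0.00201). Chrd, the BMP antagonist chordin, had 11 and 14 counts in NC against 29 and 37 in KO (1.31). Bambi, a membrane pseudoreceptor that dampens the pathway, had 10 and 7 counts in NC against 23 and 27 in KO (1.45). Wfikkn1 passed the filter through the KO libraries alone and Bambi through KO and 1 NC library, so a high KO level was a condition of their being tested. DESeq2 called none of the 3, giving an adjusted p of 0.0628 for Wfikkn1, 0.147 for Chrd and 0.183 for Bambi. Chrd was also lost without KO 2, and Bambi without NC 2, KO 1 or KO 2 in turn. In the filtered TPM fits Chrd was at 0.24 and 0.56 (limma adjusted p = 0.386 and 0.376) and Bambi at 0.32 and 1.10 (0.154 and 0.108), with a pseudocount of 1 and of 0.1. The TPM of Chrd overlapped between the groups, at 0.36 and 0.85 in NC and 0.81 and 0.95 in KO. Chrd shares 239 exonic bases with Thpo on the other strand, which had 143 to 274 counts in a library.

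Of the proteases that act on ligand precursors or antagonists 4 were tested and 2 passed, both lower, beside 18.2% of all genes tested. Furin, the main proprotein convertase of the family, had 2046 and 2512 counts in NC against 1904 and 1851 in KO, which on the CPM scale was 181 ± 1.01 against 141 ± 5.29 (SD, n = 2) and a log2 fold change of -0.36 (edgeR adjusted p = 0.00258, and 0.103 in the filtered TPM fits). Pcsk6 was lower at -0.31, a call lost with DESeq2, in the filtered TPM fits, without NC 2 and without KO 2, and Pcsk7 and Bmp1 did not pass. Of the 4 SMAD genes listed only the inhibitory Smad7, itself induced by TGF-beta-type signals, passed, with 742 and 1001 counts in NC against 1342 and 1365 in KO (log2 fold change 0.56, edgeR adjusted p = 4.04e-05). Smad2 and Smad4 had log2 fold changes of -0.029 and -0.023, and Smad3 one of 0.24 (edgeR adjusted p = 0.0553). Smad3 was called in the robust fit and with the replicate number as a block. Among all genes tested 37.9% passed.

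Gdf15 and Inhbe are known targets of the integrated stress response, in which the factors ATF4 and CHOP (encoded by Ddit3) raise the transcription of stress genes. Of 15 stress-response genes listed 14 were tested and 13 passed, 8 higher and 5 lower, with a median log2 fold change of 0.34, beside 37.9% of all genes tested, 19.7% higher and 18.2% lower. The count was 10 without NC 2 and 9 in each filtered TPM fit. Among the higher genes Atf3 had 139 and 170 counts in NC against 521 and 495 in KO (log2 fold change 1.64), Ddit3 166 and 144 against 411 and 393 (1.28), and Ppp1r15a, which reverses the translational arm, 594 and 709 against 1541 and 1539 (1.16). Atf5, another factor of the response, was lower at 905 and 1309 counts in NC against 632 and 582 in KO (-0.94), and with it fell the amino-acid synthesis genes Asns, Psat1 and Phgdh and the cystine transporter gene Slc7a11. Also higher were Atf4 (0.27, edgeR adjusted p = 0.0202), Chac1, Sesn2, Ddit4 and Cdkn1a. The list thus moved in both directions while Gdf15 was higher and Inhbe was scarcely read. Shared exonic bases with genes on the other strand were 12 for Ppp1r15a (Tulp2) and 68 and 13 for Ddit3 (Mars and Gm4189). Atf5 shared 82 with Nup62 and 82 with Il4i1, also on the other strand. Ddit3 also shared 105 bases on the same strand with a second annotated Ddit3 entry, which had 0 counts in every library.

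A stretch of 30 bases from the RefSeq window of Inhbe, positions -192 to -163 from its start, is shown because the window held the only match of the family to the CHOP and ATF word, which 3.45% of all windows hold. The match, in capitals and on the reverse strand, lies at positions -181 to -174. The window falls inside the gene as GENCODE draws it, so the annotations place the start differently.
Inhbe: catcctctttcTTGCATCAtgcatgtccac

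**Figure D5:**
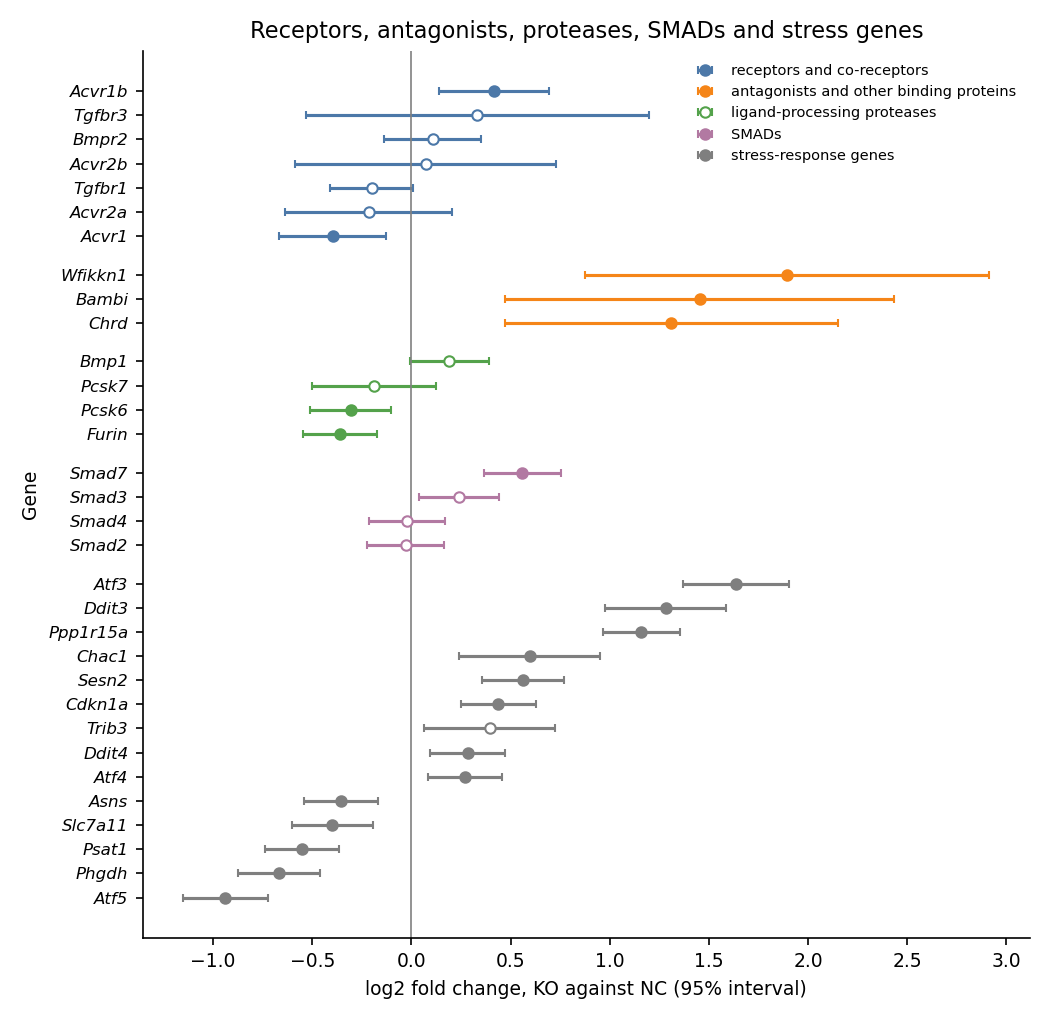
Log2 fold change of KO against NC with 95% interval for the tested genes of the pathway and stress lists, coloured by class. Filled points passed an adjusted p of 0.05 (edgeR) and open points did not. The antagonists Wfikkn1, Bambi and Chrd lie to the right with wide intervals, and the stress genes range from -0.94 (Atf5) to 1.64 (Atf3).

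Genes whose pattern over the 4 libraries was most like that of Fstl3 were sought among 9948 tested genes whose average log2 CPM reached 2. The measure was the root mean square difference of log2 CPM after centring each gene. Among the nearest were Kif1a, a kinesin motor gene, at 0.0969, and Zcchc24, a zinc finger gene, at 0.0992. Their log2 fold changes were 2.17 and 2.33 against 2.18 for Fstl3. With 4 libraries in 2 groups this likeness is mostly the size of the change.

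Markers of cell types were read beside these results. The hepatoma markers Alb, Afp, Trf, Hnf4a, Krt8 and Krt18 were abundant, while Ttr had at most 1 count and Apoa1 and Apoa2 at most 39. Of 9 such markers 8 were tested and 4 passed, beside 37.9% of all genes tested. Afp (-1.21, edgeR adjusted p = 1.01e-10) and Hnf4a (-0.995, 4.27e-09) were lower in KO, and Alb (0.41) and Trf (0.54) were higher. Of 9 fibroblast and stellate markers 4 were tested and 3 passed as higher in KO, Col1a1, Pdgfra and Des, beside 19.7% of all genes tested. Col1a1 was at 0.528 and 0.361 CPM in NC against 2.88 and 3.04 in KO. It passed the filter through the KO libraries alone, so a high KO level was a condition of its being tested. The summed TPM of the 9 markers, most of it Dcn, ranged from 1036 to 1098 in NC and from 1241 to 1244 in KO. Col3a1 and Lum had 0 counts in all libraries and Col1a2 had 1. Of 7 leukocyte markers 2 were tested and only Cd68 passed, as higher in KO. The sum of the 7 went from 24.7 and 28.9 TPM in NC to 57.35 and 68.6 in KO. Cd3e had 0 counts and Ptprc at most 2. The 6 endothelial markers summed to at most 0.48 TPM in any library. The part of Afp, Hnf4a, Alb, Trf, Col1a1, Pdgfra, Des and Cd68, which moved beside Fstl3, Gdf15, Gdf11 and Fst, was not tested.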

How the data were processed

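The comparison covers 2 NC and 2 KO libraries of Hepa1-6 cells. The authors' expected counts are estimated reads per gene, not normalised, and their TPM values are scaled by transcript length and library, per the file headers. The submitters' processing notes name STAR, RSEM, FastQC and DESeq2 and the builds GRCm38 and mm10, without versions. Whether the counting used strand is not given in the sources used here. The deposited gene lengths, in bases, are means over transcripts, and the deposited FPKM values were not used.

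Expected counts were rounded, which changed a library's total by at most 0.000188%, filtered with filterByExpr, scaled by TMM (factors 0.981 to 1.02) and tested with edgeR 4.0.16 quasi-likelihood in R 4.3.3, in a model of group alone. P-values were adjusted over 12510 genes by Benjamini and Hochberg's method, with a threshold of 0.05. Standard errors and intervals come from the fitted weights and the moderated dispersion (prior degrees of freedom 25.8). CPM values use TMM-scaled totals. Counting intervals are exact at 95%, the limit for a count of 0 is 3 counts, and both cover counting error only, since PCR copies were not separated. Levels were compared between genes in TPM only.

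On counts simulated from these libraries for this comparison, 12333 genes were tested, of which 199 had been changed. Of the genes changed 1.5-fold 66.2% were called, of those changed 2-fold 78.0% and of those changed 4-fold 98.4%. There were 7 calls among unchanged genes, and 94.9% of intervals held the true value. In the real libraries 4741 of 12510 genes passed, a far larger share than was changed in the simulation. The adjusted threshold depends on that share, so these rates and the 7 calls describe the simulated setting only.

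Coordinates are 1-based from GENCODE M21 (GRCm38), matched by versioned ID for 10 of the 10 family genes. Promoter sequences are from RefSeq on GRCm38.p6. The members, the other gene lists, the words searched and the alternatives were chosen with earlier results of these data known. Named genes are the members, Acvr2a, up to 6 pathway and 4 stress genes with the lowest p past 0.05, and the 3 genes nearest in pattern to the member with the largest change. Genes named beyond these were chosen after their values were seen. Alternatives were DESeq2 1.42.0, its size factors, a robust fit, no filter, a replicate block, each library left out, and limma 3.58.1 with a mean-variance trend on log2(TPM + 1) and log2(TPM + 0.1). Some genes that the rules would name are not reported here.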

Additional observations from a re-analysis of the deposited data

How the results depend on the processing

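Under 11 of 12 alternatives the calls for Fstl3, Fst, Gdf15 and Gdf11 were kept, with the same 4 genes called. The exception was limma on log2(TPM + 1) without a filter, which called 0 members, 0 pathway genes, 0 stress genes and 0 of 20640 genes in all, although 4506 genes had an unadjusted p under 0.05. There the log2 fold changes were 2.11 for Fstl3 (adjusted p = 0.0754), -0.65 for Fst (0.113), 0.63 for Gdf11 (0.128) and 0.84 for Gdf15 (0.0932), and the cause was not tested. Leaving out each library in turn gave 2.03 to 2.36 for Fstl3, -0.99 to -0.85 for Fst, 0.62 to 0.75 for Gdf11 and 0.69 to 0.93 for Gdf15. Inhba, which passed in none, ran from -1.60 without KO 1 to -0.59 without KO 2 and was -0.031 on filtered log2(TPM + 1).

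The pathway list had 2 calls with DESeq2 and 2 in each filtered TPM fit against 8, and between 5 (without KO 2) and 8 with a library left out. Over all genes, DESeq2 called 2843 and the filtered TPM fits 2158 (pseudocount 1; 1467 higher, 691 lower) and 2099 (pseudocount 0.1; 1427 higher, 672 lower), against 4741 (2459 higher, 2282 lower). The log2 ratio of summed Fst and Fstl3 was 1.0035 in CPM against 1.19 in TPM. The CPM values take no account of length and are TMM-scaled, which the TPM values are not. The parts of length and scaling were not separated. Without KO 1 the log2 ratio of summed ligand TPM was 0.70 against 0.85, an alternative chosen after seeing the data. None of these values changed sign under the alternatives run.

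The replicate numbers are not stated to pair libraries, and same-numbered NC and KO libraries did not deviate together (correlation -0.0116 across the genes tested). With the replicate number as a block 5006 genes passed, 4711 of them also without it, and the same 4 members were called.

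Depth limits the 6 genes with under 50 counts in all, Inha, Inhba, Inhbb, Inhbc, Inhbe and Fstl1.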

Other observations

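The genes next to the 4 called members were read as well. Fstl3 (2.18) lies between Rnf126, with a log2 fold change of 0.072 (edgeR adjusted p = 0.576) at 10320 bases, and Palm, at 0.36 (adjusted p = 0.00554) at 10942 bases. Gdf11 (0.69) lies between Sarnp, at -0.053 (adjusted p = 0.746), and Cd63, a tetraspanin gene that was lower at -0.36 (adjusted p = 0.00265). Beside Gdf15 (0.81), Pgpep1 was at 0.081 (adjusted p = 0.553) and the predicted gene Gm45546 at -1.35 (adjusted p = 0.0940). Beside Fst (-0.91), Ndufs4 was at -0.18 (adjusted p = 0.238) and Mocs2 at 0.24 (adjusted p = 0.192). Inhbe was not a called member and had 2 counts in all libraries. The nearest tested gene below it on chromosome 10 was Gli1, a Hedgehog pathway factor 6883 bases away, which was higher in KO at 1.53 (adjusted p = 5.25e-07). On its other side R3hdm2 was at -0.12 (adjusted p = 0.347). Gli1 is named because of its value, and 19.7% of all genes tested passed as higher. Neighbours of the other members that were not called are left out. Neighbours are the nearest tested genes on either side by annotation, a choice added after the data had been seen.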
